A study of Sus scrofa with 13 samples.

Results

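The cell cycle and proliferation genes described here are 44 genes chosen by name: cyclins and their kinases, genes of DNA replication, genes of mitosis, and inhibitors of the cycle with the RB-E2F switch. Of these, 29 had at least 1 probe set under their symbol in the platform annotation, out of 6765 genes so named in all, and these 29 genes were covered by 42 probe sets out of 23999. For each gene the probe set with the highest mean over all animals stands for the gene. RNA had been taken by drill biopsy from the hearts of 13 female miniature pigs of the Sinclair breed at month 4 after a permanent infarct, made by tying off diagonal branches (the 1st and the 2nd) of the LAD, the large artery at the front of the heart. The animals were 3 months old at the operation. All 13 thus carried an infarct, and no animal without one is among them. In the stem cell group, 7 animals had received 50000000 cells, which the labels call MPCs, in 2 ml saline at 5 sites in the border zone of the infarct. In the saline group, 6 animals had received 2 ml saline in 5 injections. Each animal gave 1 Affymetrix porcine array. Where each biopsy lay relative to infarct and border zone is not given per animal, and the labels give no batch.

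A cell that divides passes through a fixed order of phases. D-type cyclins with their kinases start it by releasing E2F factors from the RB protein, later cyclins drive DNA copying, and B-type cyclins with CDK1 drive mitosis. Inhibitors such as p21 and p27 hold the kinases back. Heart muscle cells of adult mammals rarely divide, so in heart tissue the messages of replication and mitosis are usually scarce and are often carried by fibroblasts, vascular cells and immune cells. Some of these genes also have roles outside division, for example in stress responses. Levels are given as log2 of the deposited intensity, and differences as stem cells minus saline on that scale. Levels of different probe sets cannot be set against each other, since probes differ in how brightly they bind.

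The arrays were alike as a whole, with pairwise correlations of 0.936 to 0.986 over 14399 tested probe sets. Genes that mark heart muscle cells were abundant in every animal: the mean of 11 cardiomyocyte markers lay between 13.77 and 13.99 after saline and between 13.82 and 14.16 after stem cells. A probe set was tested only where its mean over 13 animals lay above 3.36, the 40th percentile of all probe sets. For scale, the highest mean among 17 control probe sets without a porcine target was 2.58. No probe set of the array passed an adjusted p of 0.05 between the groups (limma, lowest adjusted p of 0.393), while 1519 had an unadjusted p under 0.05.

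Of the 29 genes with a probe set, 19 lay above the level required for testing and 10 lay under it. The 10 were the S-phase and mitotic cyclin CCNA2, the helicase subunits MCM3, MCM4 and MCM5, the nucleotide-synthesis genes TYMS and RRM2, the mitotic genes CDC20, AURKA and PLK1, and the CDK4/6 inhibitor CDKN2C. Their means ran from 2.27 to 3.16, and 3 of the 10 were no higher than the brightest control without a target. Just under the limit lay AURKA at 3.09, MCM5 at 3.13 and PLK1 at 3.16. Just above it lay AURKB at 3.39, CCNB1 at 3.41 and MCM2 at 3.46. Of the tested members, 5 had a mean under 4, all of them genes of replication or mitosis: AURKB, CCNB1, MCM2, CCNB2 and TOP2A. The other 15 of the 44 genes had no probe set under their symbol alone and, apart from CDK6, were not analysed here. They were CCND1, CCND3, CCNE1, CCNE2, CDK1, CDK4, CDK6, CDKN1C, MCM6, MCM7, TK1, MKI67, BUB1, RB1 and E2F1. CDK6, a kinase partner of D-type cyclins, was listed under a pair of gene IDs with the same symbol on 2 probe sets, so it was kept out of all counts. The brighter of them averaged 5.90 ± 0.52 (SD, n = 6) after saline and 6.26 ± 0.32 (SD, n = 7) after stem cells, a difference of 0.36 ± 0.23 (log2, SE, limma unadjusted p of 0.141 and adjusted p of 0.588). The other CDK6 probe set, with a mean of 5.04, differed by 0.43 ± 0.23 (limma unadjusted p of 0.079 and adjusted p of 0.522).

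**Figure D1:**
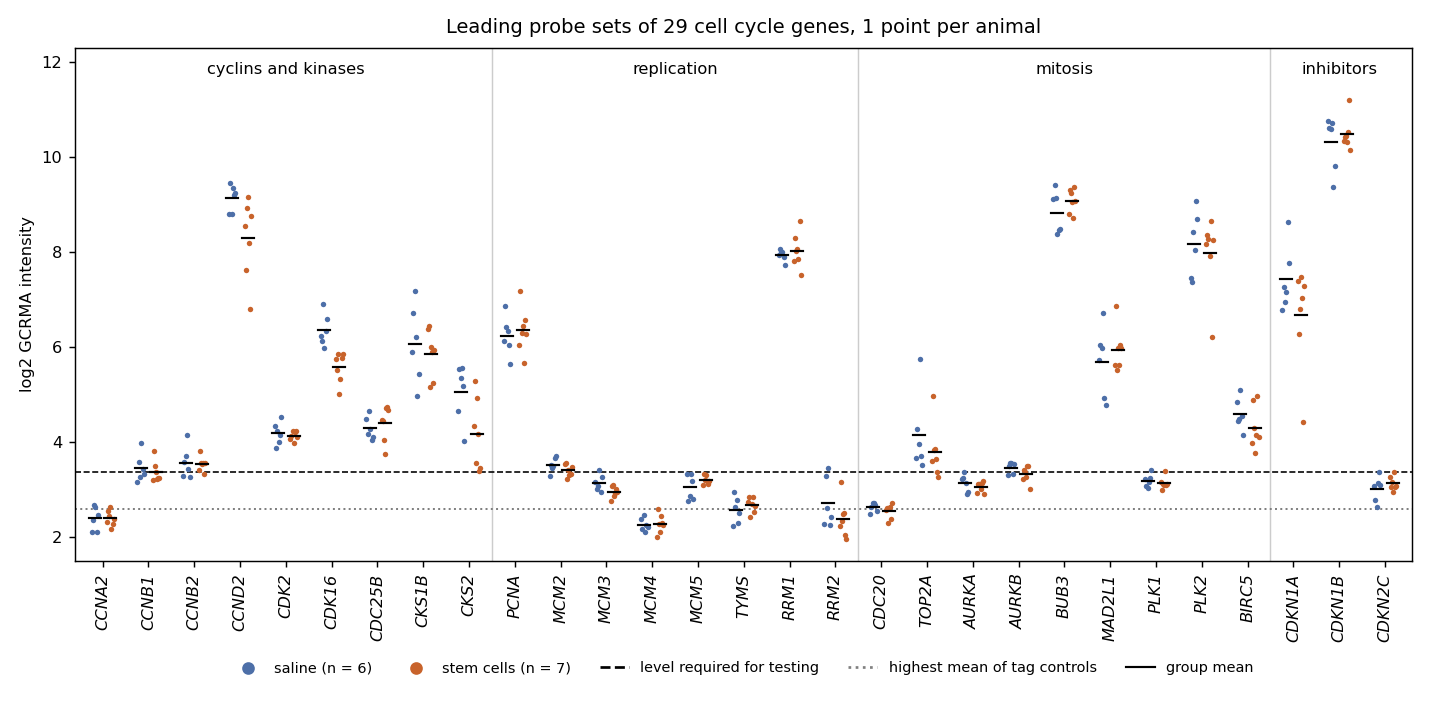
The plot shows the log2 intensity (y axis) of the leading probe set of each of 29 genes (x axis, grouped by role), with 1 point per animal, blue for saline (n = 6) and orange for stem cells (n = 7), and a black bar for each group mean. The dashed line is the level of 3.36 required for testing and the dotted line the highest mean, 2.58, of controls without a target; 10 genes have means under the dashed line, and the orange points of CDK16 all lie under its blue points.

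The question the design posed for these genes was whether their RNA at month 4 differed between hearts given stem cells and hearts given saline. None of the 19 tested members passed the test over all probe sets (0 of 14399 probe sets did, 0%; limma). On the log2 scale 13 members were lower and 6 higher after stem cells, with a median difference of -0.12, against a median of -0.054 over the leading probe sets of all 5196 named genes tested and 0.017 over all probe sets. A difference below 0 was found for 59.4% of those genes and for 47.2% of all probe sets. The members were chosen with earlier results of these data known, so their shares are described and not tested. An unadjusted p under 0.05 was found for 3 members, or 15.8% of 19, against 11.9% of the leading probe sets and 10.5% of all probe sets. All 3 were lower after stem cells, and all 3 were regulators of kinases or a kinase: CDK16, CCND2 and CKS2. Lower calls of this kind made up 8.95% of leading probe sets and 5.15% of all probe sets, and higher calls 2.91% and 5.4%, where the members had none. In bulk tissue, fewer cells of a type and less RNA per cell cannot be told apart, and this holds for every difference below.

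**Figure D2:**
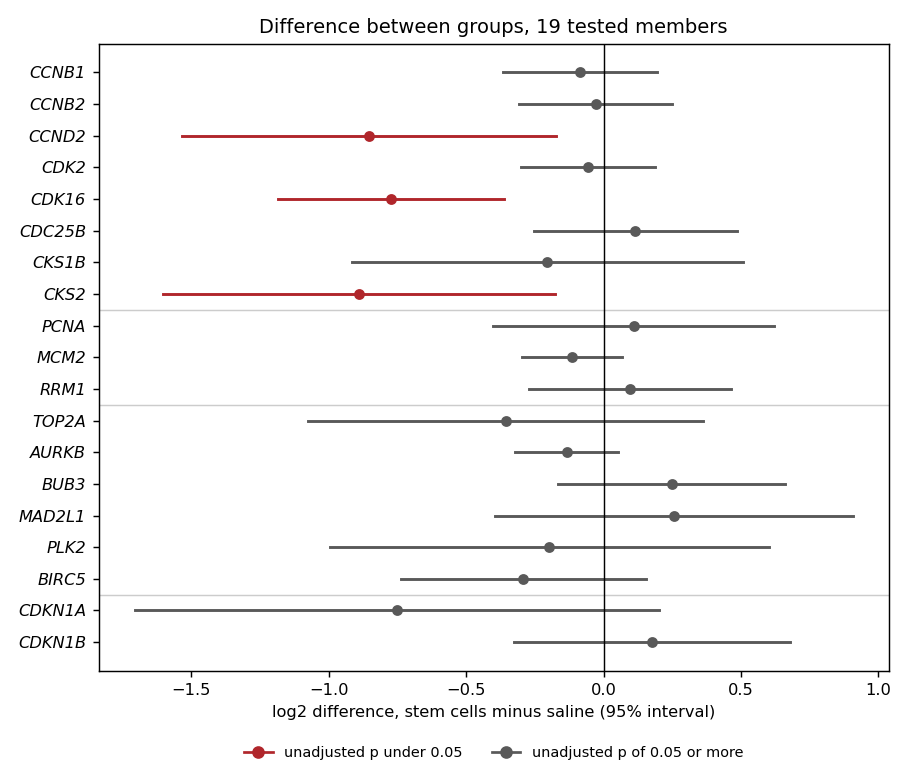
The plot shows the log2 difference, stem cells minus saline (x axis), of the 19 tested members (y axis, grouped by role with grey lines), as a point with its 95% interval from limma. The intervals of CCND2, CDK16 and CKS2, in red, lie wholly below 0, and the other 16, in grey, include 0.

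Among cyclins, kinases and their activators, 8 members were tested, of which 7 were lower and 1 was higher after stem cells. CDK16, a kinase of the PCTAIRE family that pairs with cyclin Y, was the member with the smallest p. Its leading probe set lay between 5.97 and 6.89 after saline, with a median of 6.28, and between 5.02 and 5.86 after stem cells, with a median of 5.75. Every one of the 7 treated hearts was under every one of the 6 saline hearts, the sole tested member whose groups did not overlap, against 0.366% of leading probe sets and 0.278% of all probe sets (0.289% and 0.16% for lower alone). The difference was -0.77 ± 0.19 (log2, SE; a ratio of 0.585, 95% interval of the difference from -1.18 to -0.36), with a limma unadjusted p of 0.00112 and an adjusted p of 0.393. The other CDK16 probe sets did not share this separation. The second, with a mean of 4.22, differed by -0.13 ± 0.25, and the third, with a mean of 3.81, by -0.08 ± 0.12, and in both the groups overlapped. With the 3 probe sets averaged, the difference was -0.33 and the unadjusted p was 0.0517. CDK16 is therefore a result of 1 probe set out of 3.

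CCND2 encodes cyclin D2, which opens the cycle together with CDK4 or CDK6. It lay between 8.79 and 9.44 after saline, with a median of 9.21, and between 6.79 and 9.15 after stem cells, with a median of 8.55. The saline animals were tightly grouped, with an SD of 0.28 against 0.83 in the stem cell group, and 5 of the 7 treated hearts were under the lowest saline heart. The difference was -0.85 ± 0.32 (log2, SE; 95% interval from -1.53 to -0.17), with a limma unadjusted p of 0.0172 and an adjusted p of 0.423. It was -0.61 without stem cells replicate 6, the animal with the lowest value. With each animal left out in turn the unadjusted p stayed under 0.05, at 0.0378 or less.

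CKS2 encodes a small protein that binds cyclin-dependent kinases and is needed for them to act on their targets. It lay between 4.02 and 5.56 after saline, with a median of 5.26, and between 3.39 and 5.28 after stem cells, with a median of 4.17. After stem cells, 6 of 7 values were under the saline mean and 3 under the lowest saline value, so the groups overlapped. The difference was -0.89 ± 0.34 (log2, SE; 95% interval from -1.60 to -0.18), with a limma unadjusted p of 0.0179 and an adjusted p of 0.423. Its close relative CKS1B spread widely in both groups, from 4.96 to 7.18 after saline and from 5.17 to 6.44 after stem cells, and differed by -0.20 ± 0.33.

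**Figure D3:**
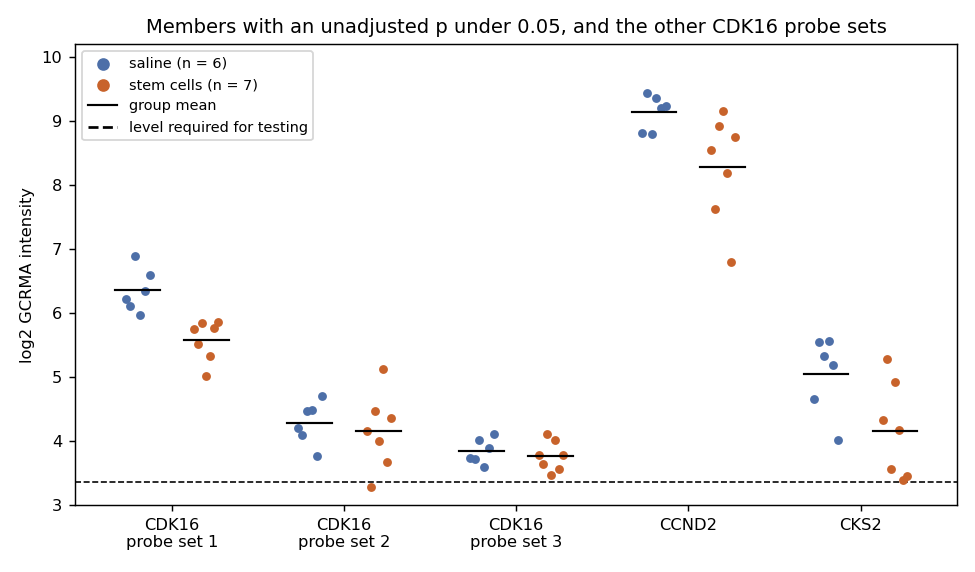
The plot shows the log2 intensity (y axis) of each animal for the 3 CDK16 probe sets, CCND2 and CKS2 (x axis), in blue for saline (n = 6) and orange for stem cells (n = 7), with a black bar for each group mean and a dashed line at the level of 3.36 required for testing. The groups are apart in the first CDK16 probe set (highest stem cell value 5.86, lowest saline value 5.97) and overlap in the other 4.

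The intervals of CDC25B, CDK2, CCNB1 and CCNB2 all included 0. CDC25B, a phosphatase that activates cyclin-dependent kinases before mitosis, lay between 4.04 and 4.66 after saline and between 3.75 and 4.73 after stem cells, and differed by 0.12 ± 0.17 (log2, SE; 95% interval from -0.25 to 0.48). Leaving out stem cells replicate 6 gave 0.061, and leaving out stem cells replicate 4 gave 0.22. CDK2, the kinase of cyclins E and A, differed by -0.06 ± 0.11, and its second tested probe set by -0.20 ± 0.13. The mitotic cyclins CCNB1 and CCNB2 differed by -0.09 ± 0.13 and -0.03 ± 0.13. For CDK2 the interval of the difference ran from -0.30 to 0.19, and for CCNB2 from -0.31 to 0.25.

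Of the replication genes, 3 were measured well enough to test, and none had an unadjusted p under 0.05. PCNA, the sliding clamp that holds DNA polymerases on their template, lay between 5.65 and 6.87 after saline, with a median of 6.23, and between 5.67 and 7.18 after stem cells, with a median of 6.28. The groups overlapped almost wholly, and the difference was 0.11 ± 0.24 (log2, SE; 95% interval from -0.40 to 0.62). RRM1, the large subunit of the enzyme that makes deoxynucleotides, was tightly grouped after saline, between 7.74 and 8.05, and wider after stem cells, between 7.52 and 8.66. It differed by 0.10 ± 0.17 (95% interval from -0.27 to 0.47). MCM2, a subunit of the helicase that opens DNA at origins, lay near the limit for testing, between 3.29 and 3.70 after saline and between 3.23 and 3.55 after stem cells. Its difference was -0.12 ± 0.085. The 95% interval of PCNA leaves the sign of its group difference open, and MCM3, MCM4, MCM5, TYMS and RRM2 are left without a usable level.

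Mitosis was represented by 6 tested members, 4 lower and 2 higher after stem cells, none with an unadjusted p under 0.05. TOP2A, the topoisomerase that untangles sister chromatids and a common marker of dividing cells, lay between 3.52 and 5.75 after saline, with a median of 3.83, and between 3.27 and 4.96 after stem cells, with a median of 3.64. In each group a single animal stood far above the rest, saline replicate 4 at 5.75 and stem cells replicate 2 at 4.96, while the other saline animals reached 4.28 and the other stem cell animals 3.86. The difference was -0.36 ± 0.34 (log2, SE; 95% interval from -1.07 to 0.36). Without saline replicate 4 it was -0.035, and without stem cells replicate 2 it was -0.55. BIRC5, or survivin, part of the complex that guides chromosome attachment, lay between 4.15 and 5.10 after saline and between 3.77 and 4.96 after stem cells, with 3 values after stem cells under the lowest saline value. It differed by -0.29 ± 0.21 (95% interval from -0.74 to 0.15). AURKB, the kinase of that same complex, lay between 3.31 and 3.56 after saline and between 3.02 and 3.50 after stem cells, and differed by -0.13 ± 0.089.

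The spindle checkpoint genes were higher on average after stem cells, within the spread of the animals. BUB3 lay between 8.38 and 9.40 after saline, with a median of 8.80, and between 8.71 and 9.37 after stem cells, with a median of 9.08, and differed by 0.25 ± 0.19 (log2, SE; 95% interval from -0.16 to 0.66). The saline animals ranged more widely than the stem cell animals, with SDs of 0.44 and 0.25. MAD2L1, which acts with BUB3 to delay chromosome separation, lay between 4.77 and 6.71 after saline and between 5.50 and 6.86 after stem cells. It differed by 0.25 ± 0.31, by 0.071 without saline replicate 6, its lowest animal, and by 0.46 without saline replicate 4. PLK2, a polo-like kinase that is induced by stress and growth signals, lay between 7.36 and 9.07 after saline and between 6.20 and 8.65 after stem cells. Its difference of -0.20 ± 0.37 turned to 0.098 without stem cells replicate 6.

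Of the inhibitors, CDKN1A and CDKN1B were tested. CDKN1A encodes p21, which p53 induces and which blocks cyclin-dependent kinases. It lay between 6.77 and 8.63 after saline, with a median of 7.21, and between 4.43 and 7.47 after stem cells, with a median of 7.03. The medians were close, and the mean difference of -0.75 ± 0.45 (log2, SE; 95% interval from -1.71 to 0.20; limma unadjusted p of 0.113 and adjusted p of 0.565) drew on stem cells replicate 6 at 4.43 and saline replicate 5 at 8.63. Without stem cells replicate 6 it was -0.38. CDKN1B encodes p27, an inhibitor typical of resting cells. It lay between 9.37 and 10.76 after saline, with a median of 10.60, and between 10.15 and 11.20 after stem cells, with a median of 10.42. Saline replicates 5 and 6 were low, at 9.37 and 9.81, and the difference was 0.17 ± 0.24 (95% interval from -0.33 to 0.68). The other CDKN1B probe sets differed by 0.17 ± 0.28 and 0.03 ± 0.085. Without saline replicate 5 the leading probe set differed by -0.014.

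The spread between animals of 1 group was wide for many members. The median SD within groups was 0.403 over the 19 members, against 0.333 over the leading probe sets of all genes tested. Saline replicate 4 had the highest value of all 13 animals in 6 of 19 members: CCNB1, CCNB2, CKS2, TOP2A, AURKB and BIRC5. All 6 are genes of mitosis or of the kinases that drive it. Stem cells replicate 2 was the highest of all animals for PCNA and MAD2L1 and the highest of its group in 8 of 19 members, CCNB1, CCNB2, CKS1B, CKS2, PCNA, MCM2, TOP2A and MAD2L1. Each group thus held 1 animal with high values in several mitotic members, though BUB3 was at its lowest of all 13 animals in saline replicate 4. These animals were also the highest in some mitotic genes outside the 19. NUSAP1, a spindle protein, was at 6.54 in saline replicate 4 and 6.21 in stem cells replicate 2, and between 4.24 and 5.14 in the other animals. RACGAP1, a regulator of cytokinesis, was at 5.46 and 5.22 in these animals and at 4.72 or less in the others. Both genes were picked after their values were seen. Of 19 other mitotic genes tested, saline replicate 4 was the highest animal in 5, stem cells replicate 2 in 5 and stem cells replicate 6 in 4. Stem cells replicate 2 was also the lowest animal in 2 of them, ANAPC2 and PPP2R5A.

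Stem cells replicate 6 showed a different pattern. It had the lowest value of all 13 animals in 4 members, CCND2, CKS2, PLK2 and CDKN1A, and the highest in 3, CDC25B, RRM1 and CDKN1B. Its CDKN1A level of 4.43 compared with 6.28 to 7.47 in the other stem cell animals, and its PLK2 level of 6.20 with 7.92 to 8.65. BTG2, an antiproliferative gene that p53 also induces, was at 4.95 in this animal and between 10.26 and 11.59 in the other stem cell animals. Among other genes that p53 induces, CCNG1, at 13.91, and SESN1, at 11.12, were at their highest of all 13 animals in it. Both were picked after their values were seen. Of 6 tested p53 and checkpoint genes outside the members, GADD45B, at 7.91, and WEE1, at 7.65, were at their lowest of all 13 animals in it. The median deviation of those 6 genes from their means over 13 animals was -0.54 in this animal. The same animal had the lowest mean of 8 macrophage and monocyte markers, 6.33, and the lowest mean of 6 smooth muscle and pericyte markers, 7.78, of all 13 animals. It ranked 12th of 13 in fibroblast markers and in endothelial markers, at 6.95 and 7.42, and 2nd in cardiomyocyte markers, at 14.14. In lymphocyte, fat cell and erythroid markers it ranked 6th, 9th and 11th. The part of these markers in the pattern was not tested.

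**Figure D4:**
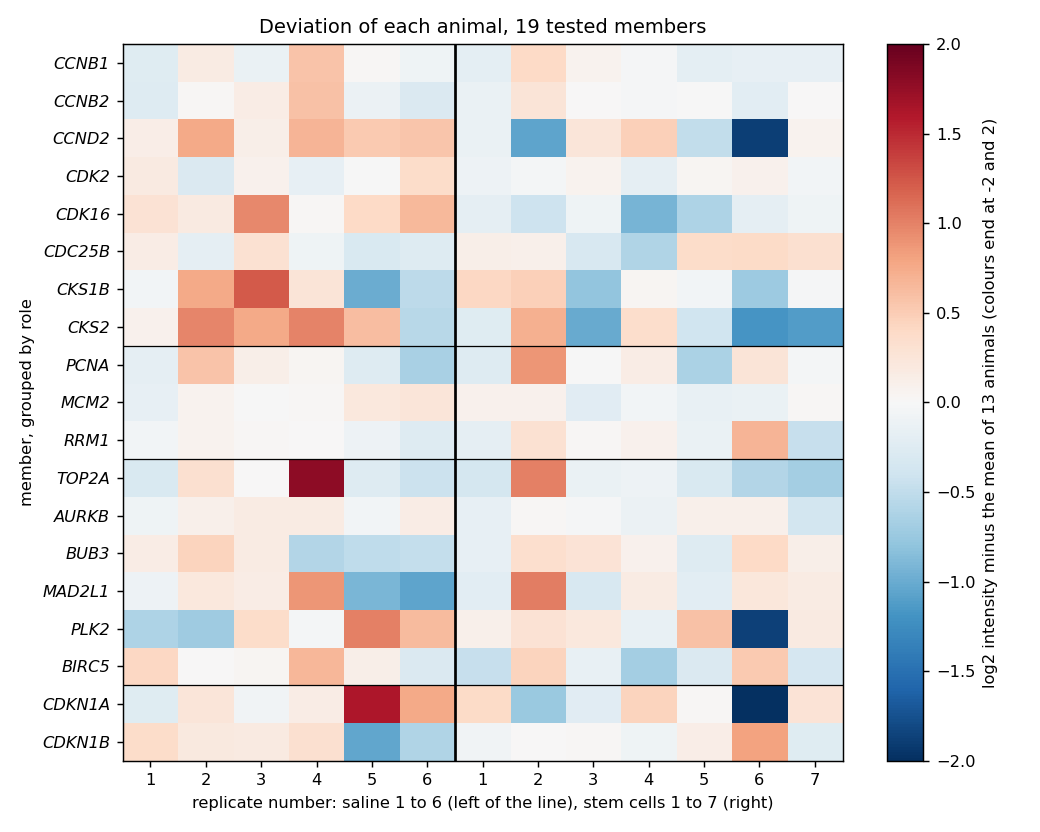
The heat map shows, for each of 19 tested members (rows, grouped by role) and each animal (columns, saline 1 to 6 left of the line and stem cells 1 to 7 right of it), the log2 intensity minus the gene's mean over 13 animals, in red above and blue below the mean with colours ending at -2 and 2. TOP2A and MAD2L1 are red in saline replicate 4 and stem cells replicate 2, BUB3 is blue in saline replicate 4, and CCND2, PLK2 and CDKN1A are dark blue in stem cells replicate 6.

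Of 8 pairs of members set for comparison over animals, 3 had both genes measured. CCNB1 and CCNB2, which act together at mitosis, correlated over 13 animals with Pearson's r of 0.817 and Spearman's rho of 0.644 (two-sided permutation p of 0.0016 and 0.0198, adjusted over 3 pairs 0.0048 and 0.0297). Without saline replicate 4 and stem cells replicate 2, r was 0.329, so this relation rests on those animals. PCNA and RRM1, both needed in S phase, had an r of 0.606 and a rho of 0.864 (permutation p of 0.0308 and 0.00027, adjusted 0.0308 and 0.00081). Within groups r was 0.952 over the 6 saline animals and 0.577 over the 7 stem cell animals, and 0.484 without the animals farthest out in PCNA, saline replicate 6 and stem cells replicate 2. CDKN1A and PLK2, both p53-responsive, had an r of 0.788 and a rho of 0.385 (permutation p of 0.00548 and 0.195, adjusted 0.00822 and 0.195). Without saline replicate 5 and stem cells replicate 6, r was 0.0631, so this relation too rests on those animals. Cell makeup and RNA quality of a biopsy are shared by both genes of a pair.

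**Figure D5:**
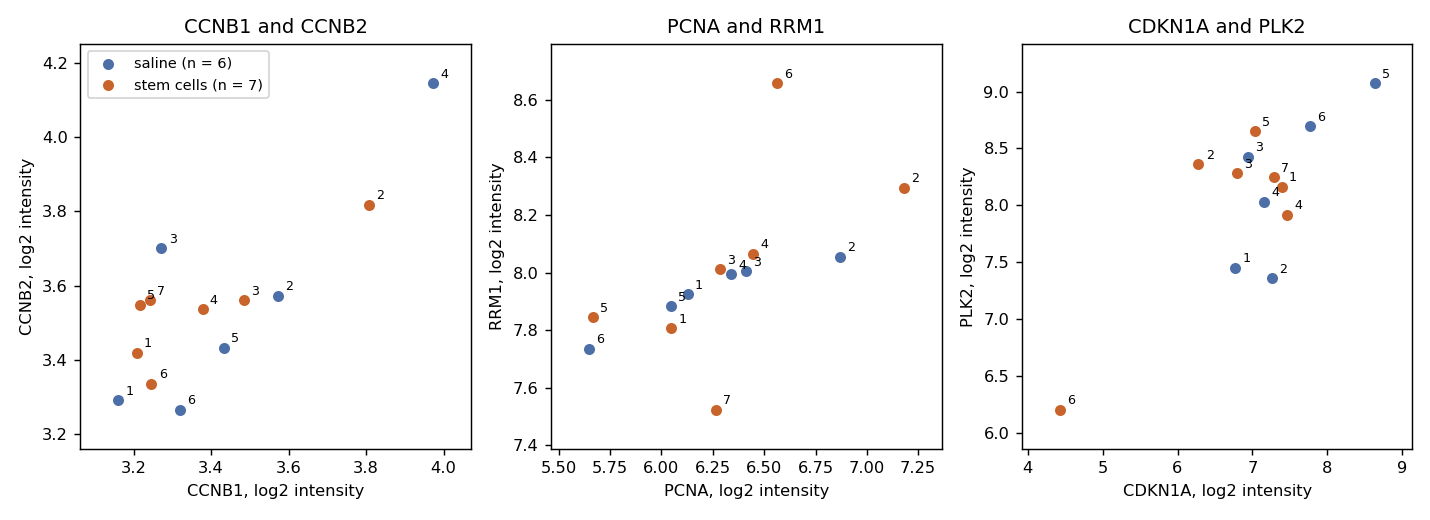
The 3 plots set the log2 intensity of one member (x axis) against another (y axis) for 13 animals, blue for saline (n = 6) and orange for stem cells (n = 7), with each point labelled by its replicate number. Saline 4 and stem cells 2 lie apart at the upper right for CCNB1 and CCNB2, and stem cells 6 lies apart at the lower left for CDKN1A and PLK2.

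The wider cell cycle pathway was read from 181 further genes, of which 96 had a probe set and 70 were tested. None passed an adjusted p of 0.05 (limma), and 5 had an unadjusted p under 0.05, 3 higher and 2 lower after stem cells, or 7.14% against 11.9% of leading probe sets. Their median difference was 0.02. That count of 5 rested in part on single animals. It was 1 when stem cells replicate 6 was left out, 2 when stem cells replicate 3 was, and 3 when either saline replicate 3, stem cells replicate 2 or stem cells replicate 4 was. Of 10 further cyclins and kinases, 7 were higher after stem cells. CCNG1, a cyclin that p53 induces, lay between 12.88 and 13.40 after saline and between 13.20 and 13.91 after stem cells, and differed by 0.29 ± 0.12 (log2, SE; unadjusted p of 0.0279, adjusted p of 0.431, limma). CCNI, an atypical cyclin abundant in tissues that do not divide, differed by 0.24 ± 0.10, with all 7 stem cell animals above the saline mean. CDK5, a kinase with its main role in neurons, differed by -0.14 ± 0.11.

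Of 23 further replication genes, 14 were higher and 9 lower. POLE4, a small subunit of DNA polymerase epsilon, lay between 10.52 and 11.01 after saline and between 9.70 and 10.85 after stem cells, with 5 of 7 values after stem cells under the lowest saline value. It differed by -0.41 ± 0.17 (log2, SE; limma unadjusted p of 0.0294). POLD4, a small subunit of polymerase delta, and RNASEH2A, which removes RNA primers, differed by -0.33 ± 0.20 and -0.21 ± 0.14. Of 19 further mitotic genes, 8 were higher and 11 lower. The cohesin subunit RAD21, which holds sister chromatids together and also shapes chromatin in resting cells, lay between 10.99 and 11.54 after saline and between 11.37 and 12.20 after stem cells, and all 7 stem cell animals lay above the saline mean. It differed by 0.39 ± 0.15 (adjusted p of 0.423, limma). ANAPC13 and CDC26, small subunits of the complex that ends mitosis by marking cyclins for destruction, differed by -0.50 ± 0.20 and -0.37 ± 0.20, and in both every stem cell value was under the saline mean.

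Of 12 further inhibitors and genes of the RB-E2F switch, 6 were higher and 6 lower. E2F3, an activating E2F factor, lay between 4.34 and 5.34 after saline and between 4.22 and 4.72 after stem cells and differed by -0.30 ± 0.15 (log2, SE), or -0.18 without saline replicate 6. SKP2, which directs p27 to destruction, differed by 0.20 ± 0.12. BTG2 differed by -1.40 ± 0.87, and by -0.53 without stem cells replicate 6. Of 6 further p53 and checkpoint genes, 3 were higher and 3 lower, with none at an unadjusted p under 0.05. SESN1, a p53-induced gene of the stress response, lay between 8.60 and 10.89 after saline and between 10.18 and 11.12 after stem cells, and differed by 0.59 ± 0.31, or 0.31 without saline replicate 5. GADD45G and WEE1, a kinase that holds CDK1 inactive, differed by 0.40 ± 0.32 and -0.19 ± 0.37. GADD45G was at 0.23 without stem cells replicate 7 and 0.60 without saline replicate 5.

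The marker genes of other cell types in the biopsy give the cell makeup as far as these arrays show it. None of 48 tested markers passed an adjusted p of 0.05 (limma). These 48 include 11 heart muscle markers, of which 0 had an unadjusted p under 0.05. The share over the other lists is therefore higher than over all 48. Over all 48, 6 had an unadjusted p under 0.05, or 12.5% against 11.9% of leading probe sets. Of these, 4 were lower after stem cells: the macrophage genes AIF1 by -0.65 ± 0.29 and TYROBP by -0.76 ± 0.30 (log2, SE), the endothelial gene ENG by -0.65 ± 0.29 and the smooth muscle gene CNN1 by -1.54 ± 0.69. The other 2 were higher, the fibroblast gene COL3A1 by 0.35 ± 0.12 and the endothelial gene TEK by 0.38 ± 0.17. The sole COL3A1 probe set had a low signal, not far above the level required for testing. Its mean was 3.67 over all animals, 3.48 after saline and 3.83 after stem cells. Its difference is therefore that of a weak signal. For each list, the mean log2 level of its tested markers overlapped between the groups. Of 8 tested macrophage and monocyte markers, 7 were lower after stem cells, and their mean ran from 6.74 to 7.78 after saline and from 6.33 to 7.41 after stem cells. Fibroblast markers, 9 tested and 3 lower, ran from 6.90 to 8.88 and from 6.95 to 8.70 in the same order. Endothelial markers, 8 tested and 6 lower, ran from 7.62 to 8.42 and from 7.31 to 8.17, and smooth muscle and pericyte markers, 6 tested and 4 lower, from 8.56 to 9.70 and from 7.78 to 9.39. Of 9 lymphocyte markers with a probe set, 3 lay above the level for testing, CD2, CD8A and PTPRC, and CD3D, CD3E, CD3G, CD4, CD79B and LCK lay under it. Of the animals high in mitotic members, saline replicate 4 ranked 4th of 13 in macrophage markers and 5th in fibroblast markers, and stem cells replicate 2 ranked 9th and 3rd. Stem cells replicate 2 was also the lowest of all 13 in endothelial markers, at 7.31, and 12th in smooth muscle and pericyte markers, at 8.09. The actin control's 3' over 5' signal, which rises as RNA degrades, was taken as a log2 ratio and ran from 2.21 to 4.20 after saline and from 1.61 to 5.04 after stem cells, with stem cells replicate 2 the highest of all 13. The GAPDH ratio ran from 0.101 to 1.12 after saline and from 0.0244 to 1.12 after stem cells, with saline replicate 2 the highest. The EF1A ratio ran from 0.798 to 1.07 after saline and from 0.712 to 1.01 after stem cells, with saline replicate 6 the highest and medians of 0.955 and 0.782. Stem cells replicate 2 had the highest value of its group in each of these 3 ratios. The part of cell makeup or RNA quality in the values above was not tested.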

How the data were processed

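The authors deposited 1 linear intensity per probe set and array, made with GCRMA per the submitters' processing notes; its version is not given in the sources used here. GCRMA subtracts background by probe sequence, normalizes arrays to each other and merges probes, so low values are compressed towards a floor. From the deposited intensities log2 was taken, 124 control probe sets were left out, and 14399 of 23999 probe sets with a mean log2 above the 40th percentile, 3.36, were tested with limma 3.58.1 in R 4.3.3 (lmFit, eBayes with trend, Benjamini-Hochberg adjustment over all tested probe sets), 7 stem cell against 6 saline animals with no covariates. Each animal gave 1 array, the animal is the replicate, and the number of animals limits the precision. Genes were named from the platform annotation: 10069 probe sets had 1 symbol, 198 several and 13732 none. Apart from CDK6, whose symbol is listed more than once on its probe sets, no gene was named from a probe set with several. The members and gene lists were chosen with earlier results of these data known.

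Full values follow a rule: at most 4 members per role by smallest p, and TOP2A, PCNA, CCND2, CDKN1A, CDKN1B and MCM2 whatever their value. Of the further pathway genes, at most 3 per role were described, also chosen by smallest p in these data. The fit was tested on simulated data of 14399 probe sets in 20 draws, each with 200 changed: at an adjusted p of 0.05 log2 differences of 0.5 were called in 20.3% of cases, of 1 in 70.8% and of 2 in 95.5%. Noise was drawn independently for each probe set, and many planted changes make the adjusted threshold easier to reach than few do. These shares thus do not give the chance of finding a change in a single member here. Correlations and permutation tests used scipy 1.17.1 with 100000 resamples. Alternatives were no filter and a stricter one, centring and quantile normalization, array weights, other variance models, the mean of a gene's probe sets, a replicate block, an adjusted p of 0.1 and leaving out each animal. No promoter, protein or probe sequence was used here.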

Additional observations from a re-analysis of the deposited data

Results flagged for a closer look

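In 7 cases a single animal lay far from the other animals of its group by Dixon's test, out of 68 groups of animals examined, of which chance gives about 1 in 20. TOP2A was at 5.75 in saline replicate 4, with the other saline animals between 3.52 and 4.28, and at 4.96 in stem cells replicate 2, with the others between 3.27 and 3.86. MAD2L1 was at 6.86 in stem cells replicate 2, with the others between 5.50 and 6.05. Stem cells replicate 6 accounted for 4 of the 7. In it PLK2 was at 6.20 (others 7.92 to 8.65), CDKN1A at 4.43 (others 6.28 to 7.47), CDKN1B at 11.20 (others 10.15 to 10.53) and BTG2 at 4.95 (others 10.26 to 11.59).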

How the results depend on the processing

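No member passed an adjusted p of 0.05 (limma) under any alternative run. Over the alternatives other than leaving out an animal, 2 to 4 members had an unadjusted p under 0.05 and the median difference ran from -0.20 to -0.08. Leaving out each animal in turn, the count stayed at 3 and the median ran from -0.16 to -0.07; over all probe sets the count called ran from 0 to 1, with 1 without saline replicate 5. With array weights 3 members changed sign, RRM1 to -0.011, PLK2 to 0.021 and CDKN1B to -0.012. Leaving out 1 animal changed the sign of genes with small differences: the range was -0.16 to 0.018 for CCNB1, -0.089 to 0.087 for CCNB2, -0.12 to 0.013 for CDK2, -0.43 to 0.018 for CKS1B, -0.029 to 0.24 for PCNA, -0.0082 to 0.18 for RRM1, -0.36 to 0.098 for PLK2, -0.014 to 0.27 for CDKN1B and -0.35 to 0.088 for WEE1. The cause was not tested. With the sign kept, the range was 0.16 to 0.36 for BUB3, -0.40 to -0.19 for BIRC5, -0.17 to -0.083 for AURKB, -0.19 to -0.088 for CDK5 and -0.27 to -0.13 for RNASEH2A. In all, 11 of 19 tested members kept their direction under every alternative run, BUB3, BIRC5 and AURKB among them. For the further pathway genes the count with an unadjusted p under 0.05 ran from 1 to 6 and the median from -0.02 to 0.05 when 1 animal was left out. Without the filter on low values MCM3 differed by -0.19 with an unadjusted p of 0.037 (limma, adjusted p of 0.559). With the replicate number as a block, 0 members passed the adjusted threshold, 3 had an unadjusted p under 0.05 and the median was -0.08. The replicate numbers showed no sign of pairing the animals: deviations of same-numbered animals correlated between -0.266 and 0.237, and none was closest to its own number. A pairing that leaves no shared deviation over the array would not show in this check. Signal near the floor limits what can be read for 10 of 29 genes, which were not tested. It also limits the tested members just above the level required for testing, AURKB, CCNB1, MCM2 and CCNB2.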
